A study of Rattus norvegicus with 8 samples.

Results

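The genes described here copy DNA and supply its building blocks: 38 named genes of origin licensing, helicase activation, DNA polymerases, the sliding clamp, nucleotide synthesis, S phase control and chromatin assembly. A gene was taken where a probe on the array carried its name or a listed older name, and kept where the probe stood well above background in the TRAP prostate on at least 4 of 8 arrays. By that rule 34 of the 38 genes were measured, through 49 probes, among 23187 genes tested. All 34 were well above background in the TRAP channel on all 8 arrays and none was saturated. No probe answered to Gins1, Gins2, Cdc45 or Cdt1 by the rule.

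The samples were ventral prostates of male TRAP rats, labelled strain SD and heterozygous for the transgene, at 15 weeks of age. The 4 control rats (Control 102, 103, 104 and 106) had basal diet and tap water, and the 4 treated rats (Telmisartan 302, 303, 305 and 306) drank telmisartan, an angiotensin receptor blocker, for 12 weeks from 3 weeks of age at a daily 10 mg/kg. A label of the treated rats names 2 doses, 2 and 10, and the series text gives the higher dose for the arrays. Each array carried the RNA of 1 rat in Cy5 and, in Cy3, normal ventral prostate of male F344 rats at 6 weeks. The sources used here do not say whether that reference was a single pool, and the dyes were not swapped. A level below is log2 of Cy5 over Cy3, so that 1 is 2-fold above the reference, and a difference is telmisartan minus control on the same scale.

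In TRAP rats the probasin promoter directs a viral T antigen to the prostate epithelium. T antigen binds the retinoblastoma protein, which otherwise holds E2F transcription factors in check, and E2F factors drive the genes of DNA replication and nucleotide supply as a cell enters S phase. Both groups carry the transgene, so the level over the reference compares a T antigen prostate with a normal one, while the treatment difference compares T antigen prostates with each other.

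Prostate markers were present in the RNA: all 6 secretory and all 9 measured luminal epithelial markers were well above background in Cy5 on all 8 arrays, although the mean level of the secretory list lay between -4.86 and -4.24 in the control rats. In that list 5 of the 6 markers were below the reference in every rat, and Azgp1 was above it, between 3.63 and 4.16 in the control rats. Between 59.2% and 76.8% of spots were well above background in Cy5. Control 103 and Telmisartan 302 stood apart from the other rats in the replication genes, and results that rest on them are given with and without them. The arrays lay on 2 slides, each with 2 rats of each group. On both slides the controls took positions 3 and 4 and the treated rats positions 1 and 2, so position and group cannot be told apart. The rats of a group are separate animals, and with 4 a group their number limits the precision.

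The promoters are shown first because members of this group are textbook E2F targets. The RefSeq promoter table of GRCr8, with 250 bases before and 50 after each annotated gene start, held 27 of the 34 measured genes. Orc1, Cdc6, Mcm4, Rrm2, E2f1, E2f8 and Ccne2 were not in it. The E2F motif was searched on both strands as TTTCCCGC, TTTGGCGC, TTTGCCGC or TTTCGCGC, and these can overlap each other when read on opposite strands. It was in 11 of the 27 promoters (40.7%), against 651 of 27457 genes in the table (2.37%). The windows below are those of the 6 genes with the highest control level among the 11. Each reads 5′ to 3′ along its gene, with the motif on either strand in capitals.
Mcm6, chr13:42404460-42404527, minus strand: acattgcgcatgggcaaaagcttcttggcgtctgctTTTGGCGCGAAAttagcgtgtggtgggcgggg
Mcm3, chr9:30733725-30733792, minus strand: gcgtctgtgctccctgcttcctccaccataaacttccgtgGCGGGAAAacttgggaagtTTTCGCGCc
Tyms, chr9:120776093-120776160, minus strand: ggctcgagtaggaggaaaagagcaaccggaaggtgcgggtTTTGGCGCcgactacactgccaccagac
Mcm7, chr12:22163203-22163270, minus strand: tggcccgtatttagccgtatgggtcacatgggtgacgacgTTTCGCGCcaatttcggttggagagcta
Pola1, chrX:62342500-62342567, minus strand: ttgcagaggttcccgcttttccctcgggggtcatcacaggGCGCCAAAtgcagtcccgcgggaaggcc
Lig1, chr1:83243149-83243199, plus strand: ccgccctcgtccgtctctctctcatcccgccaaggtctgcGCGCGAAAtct

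In Mcm6 a pair of motifs overlap on opposite strands, at -139 and -135 from the start. Mcm3 has motifs at -6 and 13, Tyms at -37 and Lig1 at 19. The Mcm7 window shows the motif at -52, whose last base is shared with a CCAAT box on the same strand, and another motif lies at -233, outside the window. The other promoters with a motif were those of Pole2, Rfc3, Mcm5, Mcm2 and Rpa2. In 9 of the 11 genes a motif began no more than 60 bases before the start or after it. Mcm6 and Pola1, with a motif at -172, were the exceptions. A match is a description of these letters and not a site shown to be bound.

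**Figure D1:**
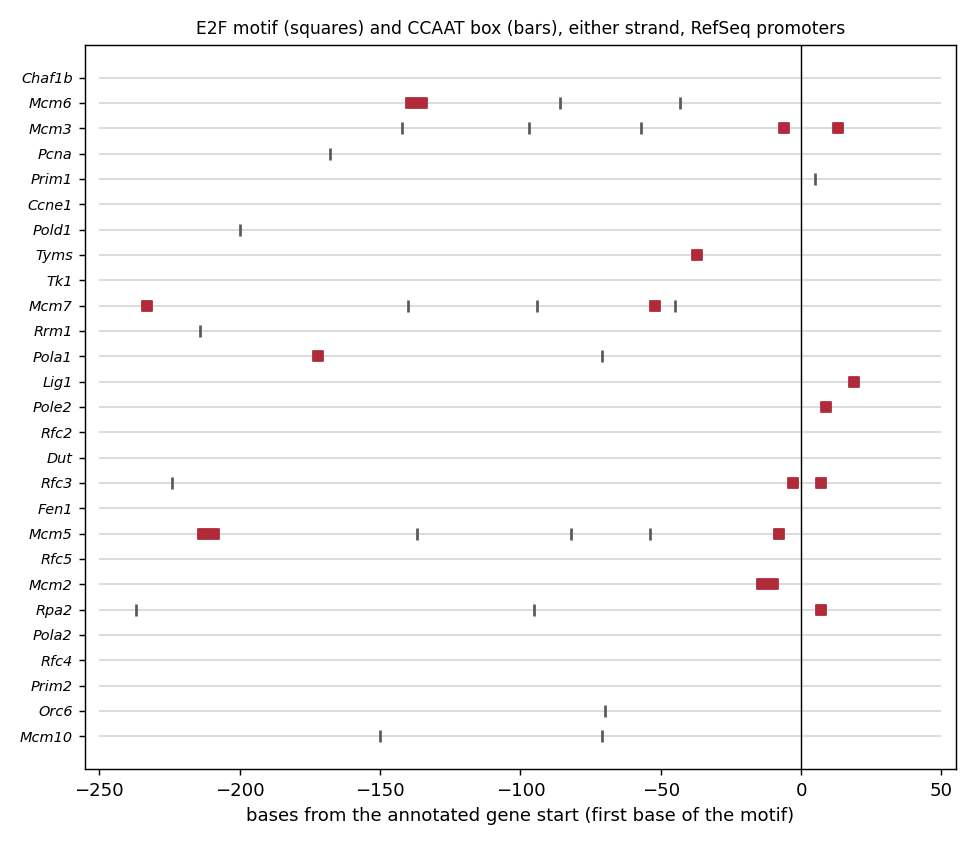
Positions of the E2F motif (red squares) and the CCAAT box (grey bars), on either strand, in the promoters of the 27 measured genes found in the RefSeq table. The horizontal axis is the distance in bases from the annotated gene start, and genes are ordered by control level from the highest at the top. The 11 genes with an E2F motif are spread through the order, and for 9 of them a motif lies near the start.

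The 11 genes with a motif had a median control level of 2.22 (range 1.71 to 3.76) and the 16 without had a median of 1.96 (range 0.44 to 3.85). The ranges overlapped, and genes without these letters included Chaf1b, Pcna and Prim1. A list of 63 further replication and nucleotide genes held the motif in 18 of the 52 promoters found (34.6%), and a list of mitosis genes held it in 1 of 13 (7.69%). The CCAAT box, searched as CCAAT on both strands, set the members apart less: it was in 13 of the 27 measured members (48.1%), in 10 of the 13 mitosis genes (76.9%) and in 39.6% of all genes in the table.

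The replication genes stood above the reference as a group in every rat. The median of the 34 control means was 2.23 and of the 34 treated means 2.18, beside a median of 0.06 over all genes tested. In 30 of the 34 genes all 8 rats were above 2-fold, against 3.73% of all genes tested. The other 4 were Prim2, whose lowest rat read 0.99, Orc6 (0.98), Orc1 (0.88) and Mcm10 (0.05). For 6 genes, Cdc6, Tk1, Pola1, Pole2, Mcm5 and Mcm10, the reference was not well above background on any array. Their levels have no rank and are lower bounds only as normalized here. Levels over the reference are descriptions with no test, since strain, age, transgene and dye all separate the channels. In whole-gland RNA, more cells in S phase and more RNA per cell cannot be told apart.

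**Figure D2:**
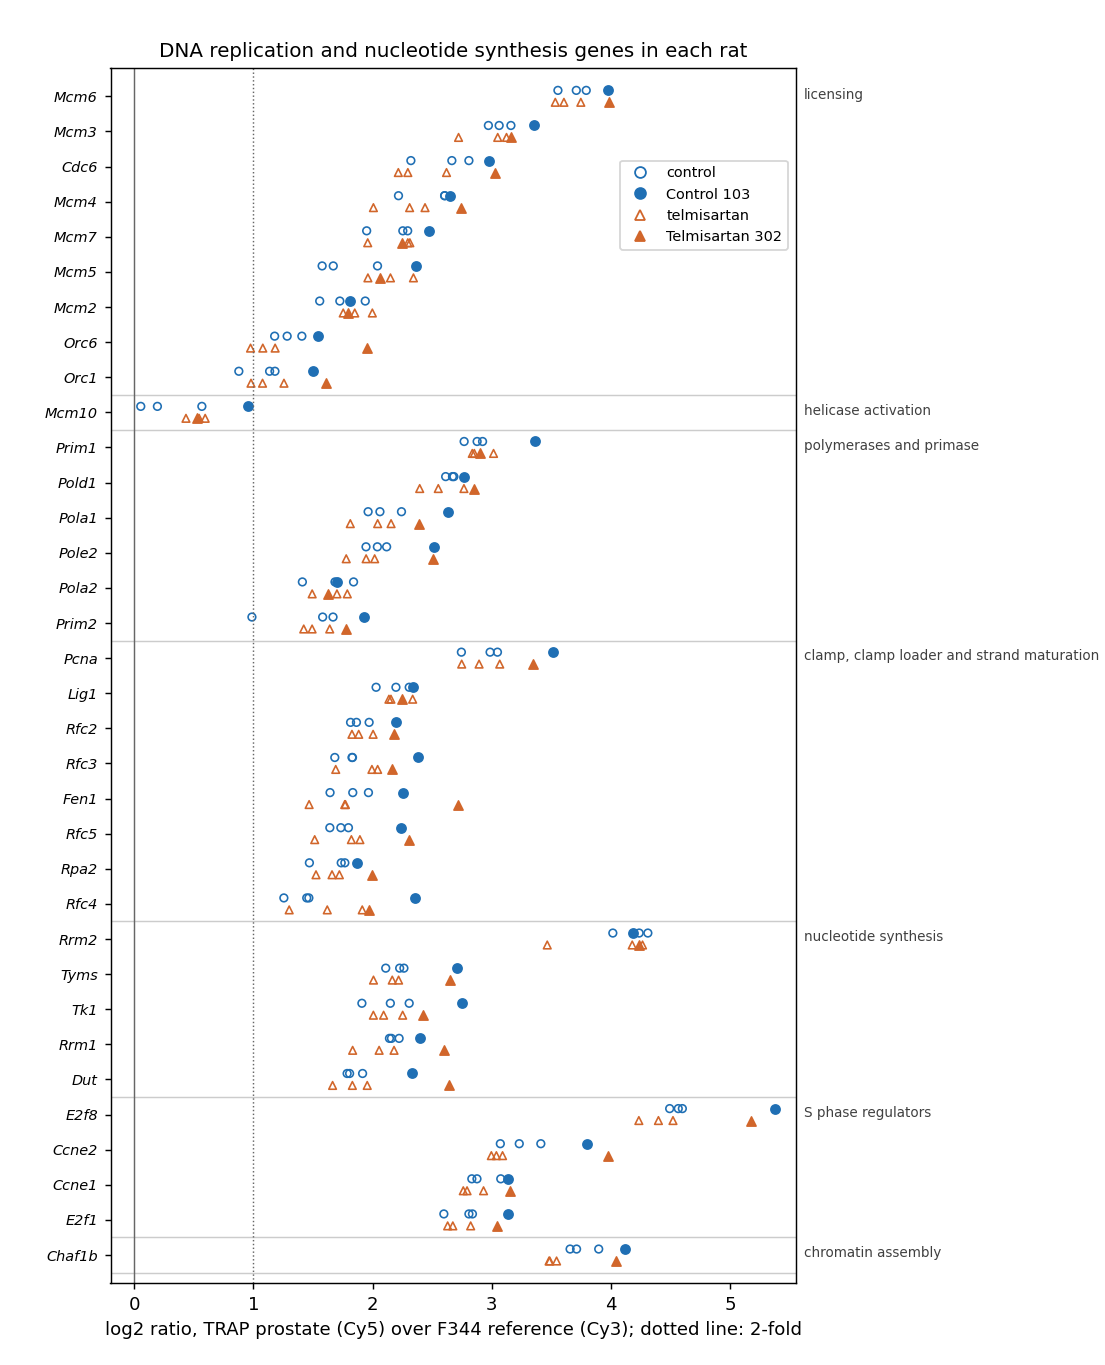
Level over the F344 reference (log2 ratio, horizontal axis) of each of the 34 genes in each rat, grouped by role; circles are control rats, triangles are telmisartan rats and filled symbols are Control 103 and Telmisartan 302. The dotted line marks 2-fold. In 30 genes all 8 rats lie to the right of it, and the circles and triangles of every gene overlap.

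Licensing loads the MCM helicase onto origins before S phase. The origin recognition complex binds DNA, Cdc6 joins it, and together they load the ring of Mcm2 to Mcm7. The median control level of the 9 measured licensing genes was 2.24. Below, values are given in the order Control 102, 103, 104 and 106, then Telmisartan 302, 303, 305 and 306.

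Mcm6 had the highest ratio of the ring subunits as normalized here. It read 3.56, 3.97, 3.79 and 3.71 in control rats and 3.98, 3.53, 3.75 and 3.61 in treated rats, which is 13.5-fold over the reference in the control mean (3.76 ± 0.17, SD, n = 4). Mcm3 read 2.97, 3.35, 3.06 and 3.16, then 3.16, 2.72, 3.12 and 3.05. In both genes the lowest treated rat was Telmisartan 303, and the groups overlapped over most of their range.

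The other subunits were lower. Mcm4 read 2.22, 2.65, 2.60 and 2.61 in control rats and 2.74, 2.01, 2.31 and 2.44 in treated rats. Mcm7 lay between 1.95 and 2.47 over the 8 rats, with a control mean of 2.24 ± 0.22 (SD, n = 4). Mcm2 read 1.56, 1.81, 1.72 and 1.94, then 1.79, 1.75, 1.85 and 2.00. The 6 subunits form a single ring in the cell, and their ratios here ran from 1.76 for Mcm2 to 3.76 for Mcm6 in the control mean. Those ratios come from different probes, so their order is not an order of the RNA levels.

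Mcm5 was the ring subunit with the widest control spread. It read 1.58, 2.37, 1.67 and 2.04 in control rats and 2.06, 2.34, 1.96 and 2.15 in treated rats. Its reference signal was not well above background on any array, so its control mean corresponds to at least 3.77-fold and its treated mean to at least 4.37-fold. Here and below, "at least" compares the Cy5 mean with the higher, on each array, of the lowest Cy3 signal well above background and the measured Cy3 signal of the probe. Among the genes with such a reference, only Mcm10 had a measured signal below that lowest signal. For the others the bound equals the normalized ratio, and another normalization moves it. Without background correction the Cdc6 control level was 2.03 rather than 2.69. The treated rats of Mcm5 lay within the range of its control rats.

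Cdc6, the loading factor, read 2.32, 2.98, 2.66 and 2.81 in control rats and 3.03, 2.30, 2.62 and 2.22 in treated rats. Its reference was also not well above background on any array, so these are at least 6.46-fold and at least 5.82-fold. Telmisartan 302 was the highest of all 8 rats and Telmisartan 306 the lowest.

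The measured subunits of the origin recognition complex were the lowest of the licensing genes. Orc6 read 1.28, 1.54, 1.41 and 1.18 in control rats and 1.95, 1.18, 0.98 and 1.08 in treated rats. Orc1 read 0.88, 1.50, 1.18 and 1.14, then 1.61, 1.08, 0.98 and 1.26. In both, 3 treated rats lay close together and Telmisartan 302 lay above them.

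Mcm10 helps to switch the loaded helicase on, and it was the only helicase activation gene with a probe by the rule. It read 0.57, 0.96, 0.05 and 0.19 in control rats and 0.53, 0.54, 0.43 and 0.59 in treated rats. Its reference was not well above background on any array, so these are bounds, at least 1.29-fold in control rats and at least 1.35-fold in treated rats, and give Mcm10 no place among the 34. On the scanner software's ratio, which replaces weak signals with surrogate values, its control level was 2.02 rather than 0.44. The control rats spread more widely (SD 0.41) than the treated rats (SD 0.07), and the treated rats all fell inside the control range. Its single probe is shown because every value for the gene rests on it.
Mcm10 probe: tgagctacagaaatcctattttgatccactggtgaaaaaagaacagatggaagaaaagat

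Probes filed under older names of Cdt1 and Gins2 lie outside the rule and are given for completeness. Cdt1, the licensing factor that works with Cdc6, had a control mean of 2.74 ± 0.20 and a treated mean of 2.80 ± 0.07 (SD, n = 4 each). Gins2, a subunit of the active helicase, had means of 2.11 ± 0.35 and 2.01 ± 0.34. Both were within the range of the licensing genes, and neither is counted among the 34.

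Polymerases and primase start and extend the new strands. Primase (Prim1 and Prim2) makes the RNA primer, polymerase alpha (Pola1 and Pola2) extends it, and polymerases delta (Pold1) and epsilon (Pole2) carry on. The 6 genes had a median control level of 2.19.

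Prim1, the catalytic primase subunit, read 2.92, 3.36, 2.77 and 2.88 in control rats and 2.90, 2.84, 2.85 and 3.01 in treated rats. Its partner Prim2 read 0.99, 1.93, 1.58 and 1.67, then 1.78, 1.64, 1.49 and 1.42. Control 103 was the highest of all rats for both, and Control 102 was the lowest for Prim2. The reference signal of Prim2 was well above background on 7 of the 8 arrays.

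Pola1 read 2.06, 2.63, 1.96 and 2.24 in control rats and 2.39, 1.81, 2.15 and 2.04 in treated rats. That is at least 4.67-fold and at least 4.29-fold, because its reference was dim on every array. Pole2 was likewise bounded, at least 4.45-fold in control rats and at least 4.17-fold in treated rats, with levels from 1.78 to 2.51. Pold1 lay between 2.40 and 2.85 and had the narrowest control spread of this role, 2.68 ± 0.06 (SD, n = 4). Pola2 lay between 1.41 and 1.84, with a reference above background on 7 arrays. In none of these 4 genes did the treated rats separate from the control rats.

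The clamp and its helpers keep the polymerase on the template and finish the lagging strand. Pcna is the sliding clamp, Rfc2 to Rfc5 belong to the loader that opens it, Rpa2 covers single-stranded DNA, Fen1 trims flaps and Lig1 seals nicks. All 8 were above 2-fold in every rat, with a median control level of 1.93.

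Pcna had the highest ratio of them. It read 2.75, 3.51, 3.05 and 2.99 in control rats and 3.35, 2.89, 2.75 and 3.07 in treated rats, or 8.42-fold in the control mean. Control 103 and Telmisartan 302 were the highest rats of their groups by a clear margin.

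Fen1 had the widest spread within groups of the 34 genes, a pooled SD of 0.42. It read 1.97, 2.25, 1.83 and 1.64 in control rats and 2.72, 1.77, 1.47 and 1.77 in treated rats. Telmisartan 302 stood 1.05 above the mean of the other 3 treated rats, the widest such gap of that rat. Lig1 had the narrowest spread of the 34, 0.12, and read 2.03, 2.34, 2.20 and 2.31, then 2.24, 2.14, 2.15 and 2.34.

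Among the loader subunits, Rfc4 read 1.46, 2.36, 1.45 and 1.25 in control rats and 1.97, 1.91, 1.30 and 1.62 in treated rats. Control 103 stood 0.97 above the mean of the other 3 controls, the widest such gap of that rat in any member. Rfc2 lay between 1.81 and 2.20, Rfc3 between 1.68 and 2.38 and Rfc5 between 1.51 and 2.31. Rpa2 lay between 1.47 and 2.00. In each of these genes too the highest control was Control 103 and the highest treated rat was Telmisartan 302.

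Nucleotide synthesis supplies the deoxynucleotides. Ribonucleotide reductase (Rrm1 and Rrm2) converts ribonucleotides, Tyms makes thymidylate, Tk1 salvages thymidine and Dut removes dUTP. The 5 genes had a median control level of 2.28.

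Rrm2, the subunit of the reductase that is made in S phase, had a control level of 4.19. It read 4.02, 4.19, 4.31 and 4.24 in control rats, 18.2-fold over the reference, and 4.24, 3.47, 4.18 and 4.27 in treated rats. Telmisartan 303 alone was low, and the other 3 treated rats lay within the control range. Rrm2, like Mcm2 and Pola2, was highest in neither Control 103 nor Telmisartan 302. Its partner Rrm1 read 2.22, 2.40, 2.14 and 2.16, then 2.60, 1.83, 2.05 and 2.18.

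Tyms read 2.23, 2.70, 2.26 and 2.11 in control rats and 2.65, 2.01, 2.16 and 2.22 in treated rats. Tk1 read 1.91, 2.75, 2.15 and 2.31, then 2.43, 2.25, 2.09 and 2.01, and its dim reference makes these at least 4.85-fold and at least 4.58-fold. Dut read 1.79, 2.33, 1.92 and 1.81, then 2.64, 1.95, 1.66 and 1.83. In all 3 genes 1 rat of each group, Control 103 or Telmisartan 302, lay above the rest.

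The S phase regulators had the highest median control level of the roles with more than 1 measured gene, 3.18 over 4 genes. E2f1 is an activating E2F factor, E2f8 is a repressing E2F factor that is itself an E2F target, and Ccne1 and Ccne2 are the E cyclins that start S phase with their kinase. E2f8 had the highest ratio of the 34 genes as normalized here. It read 4.57, 5.38, 4.60 and 4.49 in control rats and 5.18, 4.23, 4.40 and 4.52 in treated rats, 27.1-fold over the reference in the control mean (4.76 ± 0.41, SD, n = 4). Control 103 and Telmisartan 302 lay apart at the top, and the other 6 rats lay between 4.23 and 4.60.

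Ccne2 showed the same 2 rats apart: it read 3.41, 3.80, 3.23 and 3.07 in control rats and 3.97, 3.00, 3.09 and 3.04 in treated rats, with a reference above background on 6 of 8 arrays. Ccne1 read 2.88, 3.14, 3.08 and 2.83, then 3.15, 2.79, 2.93 and 2.76. E2f1 read 2.60, 3.14, 2.81 and 2.84, then 3.05, 2.63, 2.67 and 2.82. The E cyclins and E2f1 overlapped between the groups.

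Chaf1b, a subunit of the assembly factor that places histones on new DNA, had a control level of 3.85 ± 0.21 (SD, n = 4). It read 3.71, 4.12, 3.90 and 3.66 in control rats and 4.04, 3.48, 3.54 and 3.49 in treated rats. The 3 treated rats other than Telmisartan 302 lay below every control rat, and Telmisartan 302 lay above 3 of the 4.

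Of the 14 members with several probes, 13 were above 2-fold in the control mean by every probe, and 9 had probes within 1 of each other on the log2 scale. In each of the 14 the probe used, the brightest, was also the probe with the highest control level. The levels and folds given for them are thus those of their highest probe. With probes averaged, the median control level of the members was 2.18 rather than 2.23. E2f8 was apart: the brighter probe read 4.76, with a reference above background on all 8 arrays, and the other 1.91, with a reference above background on none, so that the second value is only a lower bound. The 60 bases of both are shown because the E2f8 level rests on the first.
E2f8 probe at 4.76: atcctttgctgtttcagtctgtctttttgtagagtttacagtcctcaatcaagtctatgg
E2f8 probe at 1.91: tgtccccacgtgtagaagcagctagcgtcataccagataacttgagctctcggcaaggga

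E2f1 was the gene with a probe under 2-fold: its brighter probe read 2.85 and the other 0.72, with a reference above background on 1 array. The second probe of Rrm2 read 2.73 with a reference above background on 2 arrays, and that of Ccne2 read 2.31 with one above background on 4 arrays. Because these references were dim, the gaps do not show that the probes disagree. Ccne1, whose probes both had a reference above background on all 8 arrays, read 2.98 and 1.74. In every one of the 14 genes each probe stood above the reference in the control mean.

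Telmisartan was compared with control to ask whether the drug moved these genes in the T antigen prostate. No member differed at an adjusted p under 0.05 by limma over the 23187 genes, and neither did any other gene (0% called). At an unadjusted p under 0.05 the count was 0 of 34 members, against 4.81% of all genes (1116). It was 1 of 34 without Control 103 (2021 of 23189 genes), 2 without Telmisartan 302 (1461 of 23198), 2 without both (2202 of 23201) and 1 on slide 2 alone (1377 of 23260), and none of these passed after adjustment. The treated and control rats overlapped in all 34 members, whereas they did not overlap in 2.73% of all genes (632).

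Among the probes used, the largest differences in each direction were modest. Mcm5 was 0.22 higher in treated rats (SE 0.17, 95% interval -0.17 to 0.60, limma adjusted p = 0.982). Chaf1b had a difference of -0.21 (SE 0.15, interval -0.55 to 0.14, limma adjusted p = 0.982). Neither passed the test, and both intervals contain 0. Of the probes not used, the second of Mcm3 differed by -0.30 and the second of E2f1 by 0.24, which was not tested. Of the 14 members with several probes, 10 had the same sign of difference by every probe.

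The next members by p among those lower in treated rats were Mcm3 (difference -0.12, SE 0.13), Mcm4 (-0.14, SE 0.16), Rrm2 (-0.15, SE 0.18), Cdc6 (-0.15, SE 0.20) and Pola1 (-0.12, SE 0.17). Among those higher they were Mcm2 (0.09, SE 0.11), Mcm10 (0.08, SE 0.18), Orc1 (0.06, SE 0.17), Dut (0.06, SE 0.21) and Rfc4 (0.07, SE 0.24). Each of these 10 differences was smaller than its standard error, and none passed the test. Over all 34 genes the 95% intervals reached no lower than -0.72, for E2f8, and no higher than 0.61, for Rfc4.

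**Figure D3:**
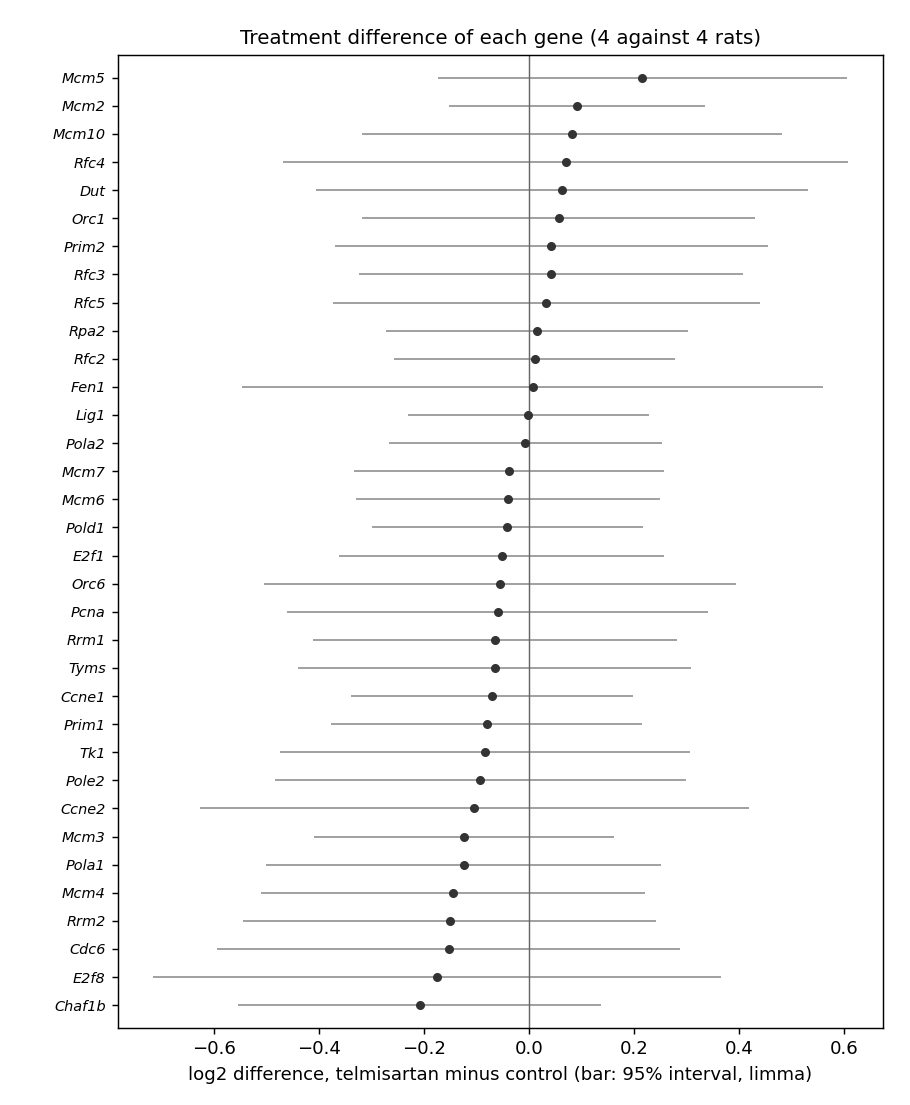
Treatment difference (telmisartan minus control, log2, horizontal axis) of each of the 34 genes with its 95% interval from limma, 4 against 4 rats, ordered by size. Points run from -0.21 for Chaf1b to 0.22 for Mcm5, and every interval crosses 0.

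The members did not lean firmly to either side. Differences were below 0 in 22 of the 34 genes, where 50.6% of all genes were below 0, and their median was -0.05 beside -0.002 for all genes. Leaving out Control 103 left 8 of 34 below 0 (median 0.04), beside 48.5% of all genes. Leaving out Telmisartan 302 left 30 below 0 (median -0.14), beside 51.6% of all genes. Without Control 102 it was 28 (all genes 52.2%), and without Telmisartan 303 it was 13 (all genes 49.7%). Without both Control 103 and Telmisartan 302 it was 21 (all genes 50.4%), with a median of -0.03. With arrays centred on their medians in place of loess, 10 of 34 were below 0 and so were 40.2% of all genes. On the scanner software's ratio the count was 15 (44.1%, all genes 48.3%). In the Cy5 channel alone it was 14 (41.2%), close to the share of all genes (43.1%). The direction of this count rests on single rats and on the scaling, which also moves the share of all genes. Within slides, the median difference of the 34 genes was -0.008 on slide 1 and -0.05 on slide 2, and no member was called on either. Taken per rat, the median level of the 34 genes was 2.21 ± 0.21 with control and 2.21 ± 0.24 with telmisartan (SD, n = 4 each).

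By median, single rats differed more in these genes than the groups did. The median level of the 34 genes was 2.00 in Control 102, 2.49 in Control 103, 2.14 in Control 104 and 2.20 in Control 106. Among treated rats it was 2.55 for Telmisartan 302, 2.00 for 303, 2.12 for 305 and 2.16 for 306. One rat of each group was high, and the other 6 lay between 2.00 and 2.20. These 2 rats were singled out after their values were seen, so the following counts describe them and test nothing.

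Control 103 was the highest control rat in 31 of the 34 genes, against 31.3% of all genes tested. The exceptions were Mcm2 and Pola2, highest in Control 106, and Rrm2, highest in Control 104. Control 103 lay above the mean of the other 3 controls in all 34 genes, by a median of 0.42, from less than 0.01 for Rrm2 to 0.97 for Rfc4. Over all genes that median was 0.002.

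Telmisartan 302 was the highest treated rat in 26 of the 34 genes, against 32.8% of all genes. The exceptions were Mcm2, Mcm5, Mcm7, Mcm10, Rrm2, Pola2, Prim1 and Lig1. It lay above the mean of the other 3 treated rats in 30 genes, by a median of 0.36, from -0.09 for Mcm5 to 1.05 for Fen1. Both rats were highest of their group in 26 of the 34 genes, against 13.6% of all genes.

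The lead of these rats was seen under other processing, in varying numbers of genes. Control 103 was highest in 26 to 32 of the 34 genes over 5 other settings. Telmisartan 302 was highest in 19 to 27, and the 19 came with median centring, under which it was highest in 25.5% of all genes. Both rats were on the same slide, whose other rats, Control 102 and Telmisartan 303, had the lowest medians, and of the spots 71.9% and 59.2% were well above background in their Cy5 channels. The median spread within groups was 0.27 (SD) for the members and 0.18 for all genes.

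The mitosis genes followed the replication genes in the same rats. Over 15 such genes, which include the cyclins Ccnb1 and Ccna2 and the kinases Cdk1 and Plk1, the median level was 3.56 in Control 103, against 3.18 to 3.24 in the other controls. It was 3.45 in Telmisartan 302, against 3.11 to 3.24 in the other treated rats. Each rat was the highest of its group in 14 of the 15 genes.

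Immune cell markers went the opposite way in these rats, and so did markers of some other cell types but not of all. The median level of 9 T cell markers was 0.62 in Control 103 against 1.85 to 2.25 in the other controls, and Control 103 was lowest in 8 of the 9. It was 0.39 in Telmisartan 302 against 0.96 to 2.05 in the other treated rats, and lowest in 9 of 9. For this list and those that follow, the share of all genes that were lowest in these rats was not computed. The counts of lowest markers are thus descriptions only. The mean over the T cell list ran from 0.63 to 2.18 in control rats and from 0.33 to 1.92 in treated rats, and 7 of the 9 markers were well above background in Cy5 on all arrays.

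The 7 macrophage markers read 0.94 in Control 103, against 1.69 to 2.01, and 0.68 in Telmisartan 302, against 1.54 to 1.95. Control 103 was lowest in 5 of the 7 and Telmisartan 302 in 7 of 7. The mean of that list ran from 1.14 to 1.69 in control rats and from 0.64 to 1.68 in treated rats. The 9 luminal epithelial markers had a median of 0.18 in Control 103, against -0.21 to 0.35 in the other controls, and were lowest there in 0 of 9. In Telmisartan 302 it was -0.12, against -0.01 to 0.11 in the other treated rats, and lowest in 4 of 9. The 6 secretory markers had a median of -6.24 in Control 103, against -6.51 to -6.14, and were lowest there in 0 of 6 and highest in 4. In Telmisartan 302 it was -6.39, against -6.17 to -6.00, and lowest in 4 of 6 and highest in 1. The 4 basal epithelial markers had a median of -2.05 in Control 103, against -1.38 to -0.78, and were lowest there in 4 of 4. In Telmisartan 302 it was -1.35, against -1.01 to -0.58, and lowest in 3 of 4. The mean of that list ran from -2.07 to -0.87 in control rats and from -1.30 to -0.54 in treated rats. Both measured B cell markers were lowest in Control 103 and in Telmisartan 302, though neither was above background on all arrays. Of 5 endothelial markers 3 and 4 were lowest in these rats, but only 2 of the 5 were above background in Cy5 on all arrays. Smooth muscle and fibroblast markers did not go this way. Of 4 smooth muscle markers, 0 were lowest in Control 103 and 0 in Telmisartan 302, and 0 and 2 were highest there. Of 6 fibroblast markers, 1 was lowest in each of these rats. The part that the markers of other cell types have in the high replication values was not tested.

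**Figure D4:**
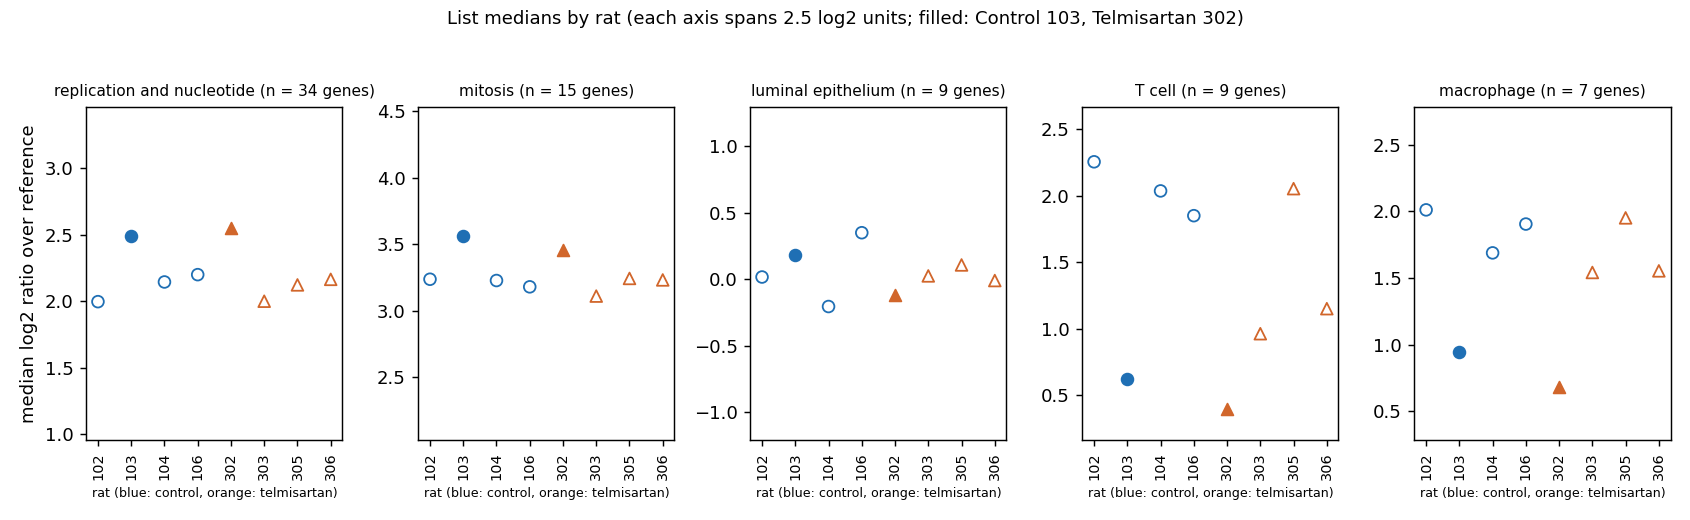
Median level over the reference (log2) of the 34 replication and nucleotide genes and of the mitosis, luminal epithelial, T cell and macrophage lists in each rat; filled symbols are Control 103 and Telmisartan 302, and every vertical axis spans 2.5 units. The 2 filled rats are the highest of their groups in the first and second panels, and the lowest in the T cell and macrophage panels. Secretory, basal epithelial, B cell, endothelial, smooth muscle and fibroblast markers are not drawn.

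Other genes of the same pathways were less uniformly above the reference. Of 63 further replication and nucleotide genes, 55 were measured. Their median control level was 0.78, with 15 of them above 2-fold in all 8 rats and 10 below the reference in the control mean. None was called between treated and control rats by limma, and at an unadjusted p under 0.05 there was 1 higher and 0 lower. Differences were below 0 in 33 and above 0 in 22.

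The highest of this list were Timeless, of the fork protection complex, at 3.51 ± 0.44, the helicase Recql4 at 3.40 ± 0.29, and Gmnn, the geminin that restrains Cdt1, at 3.23 ± 0.31 (SD, n = 4 control rats each). They were followed by the fork factor Wdhd1 at 2.65, Mcm8 at 2.23 and Samhd1 at 2.13. The reference of Wdhd1 was above background on 5 arrays and that of Mcm8 on 1, so the ratio of Mcm8 has little of a measured reference behind it. The lowest were Tfdp2, a dimer partner of E2F factors, at -1.58, Orc4 at -1.34, the folate enzyme Shmt1 at -0.96 and Rrm2b at -0.59. The list thus held genes as high as the upper members and genes well below the reference.

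Some close relatives of the members were near the reference and others were at the members' level. The relatives that follow, other than Rrm2b, Orc4 and Mcm8, were picked after values were seen. Rrm2 stood at 4.19 and Rrm2b, the reductase subunit made outside S phase and on DNA damage, at -0.59 ± 0.07 (SD, n = 4 control rats). The mitochondrial thymidine kinase Tk2 was at -0.03, while Tk1 was at 2.28 as a lower bound. In the origin recognition complex, Orc1 and Orc6 stood at 1.17 and 1.35, Orc2 at -0.19, Orc3 at 0.34, Orc4 at -1.34 and Orc5 at 0.13. The large loader subunit Rfc1 was at 0.63, and Rfc2 to Rfc5 were at 1.63 to 1.96.

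Single-strand binding and polymerase subunits were mixed. Rpa1 was at 1.59, close to Rpa2 at 1.71, while Rpa3 was at 0.33. Pole, the catalytic subunit of polymerase epsilon, was at 1.99 beside Pole2 at 2.15, while Pole3 was at 0.02 and Pole4 at 0.54. Of the polymerase delta subunits, Pold1 was at 2.68, Pold2 at 1.58, Pold3 at 1.14 and Pold4 at 0.21. Differences between genes were not tested.

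**Figure D5:**
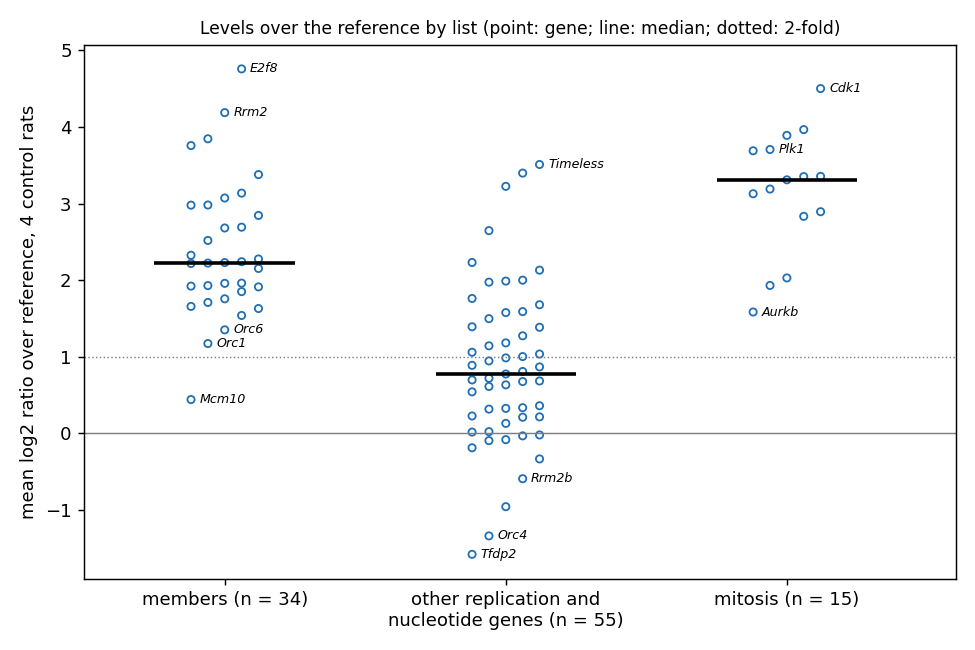
Control mean level over the reference (log2, vertical axis) of each gene in 3 lists: the 34 members, 55 other replication and nucleotide genes, and 15 mitosis genes; each point is a gene, black lines are list medians and the dotted line is 2-fold. Medians are 2.23, 0.78 and 3.31, and the second list alone has genes below 0.

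In the treatment comparison the smallest p values of that list belonged to Tfdp2, Samhd1 and Mcmbp, and none passed the test. Tfdp2 read -1.67, -1.69, -1.47 and -1.49 in control rats and -1.04, -1.33, -1.42 and -1.03 in treated rats, a difference of 0.38 (SE 0.12, limma adjusted p = 0.955). The treated rats of Tfdp2 all lay above the control rats, and groups without overlap occurred in 2.73% of all genes. In Orc3 the treated rats (0.13 to 0.26) all lay below the control rats (0.29 to 0.39). Samhd1, which breaks deoxynucleotides down and is also abundant in immune cells, read 2.79, 1.07, 2.70 and 1.97, then 0.46, 1.12, 2.19 and 1.21. Its difference was -0.89 (limma adjusted p = 0.982), and it was lowest in Control 103 and Telmisartan 302, the rats with the lowest T cell and macrophage markers. Mcmbp, which binds MCM subunits, differed by 0.19 (limma adjusted p = 0.982).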

How the data were processed

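Per the file headers, the authors' scanner software gave for each spot the mean intensity and the local background intensity in both channels, deposited uncorrected, and a log10 ratio, Cy5 over Cy3, that was background-subtracted and dye-normalized, used here as an alternative. The software was Agilent Feature Extraction 9.1, per the submitters' processing notes. Control 106 and Telmisartan 306 had a stray carriage return that was mended on reading.

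Intensities were corrected with normexp (offset 50) and normalized by loess within arrays, with control spots at weight 0, in limma 3.58.1 (R 4.3.3; files were read with fread of data.table, release 1.17.8). Control spots and outlier spots were dropped, saturated spots were kept, and spots of a probe were averaged. Of 41012 probes, 27540 exceeded background clearly in Cy5 on at least 4 arrays. The brightest probe with a value on all 8 arrays stood for each gene. Names came from RefSeq tables of GRCr8: 10735 probes matched by accession, 5571 by symbol, 3729 by older symbol, and 20977 kept the file's name. Of the 38 members, 31 had a RefSeq promoter.

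Groups were compared with lmFit and eBayes, two-sided, the group being the only term, adjusted by Benjamini-Hochberg over 23187 genes at 0.05. The code was tested on simulated data. Levels were given for every member. Treatment statistics were given for the 6 members of smallest p in each direction, and from the 63 other pathway genes the 6 highest, the 4 lowest and the 3 of smallest p were named. Members and lists were chosen with earlier results of these data known. Alternatives changed the background correction, scaling, probe filter and choice, channel, slide, variance model and weights, and left out each rat. Leaving out Control 103 with Telmisartan 302, and their ranks under other scalings, were added after the data were seen.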

Additional observations from a re-analysis of the deposited data

Results flagged for a closer look

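In each group of 4 rats, the rat at either end was compared with the rest for every member and every list median. A rat was noted where its gap to the nearest other, as a share of the group's range, exceeded Dixon's 95% critical value. This occurred in 7 of 96 groups, and chance gives about 1 in 20. Control 103 was far above the other controls for E2f8, at 5.38 against 4.49 to 4.60, and for the mitosis list, with a median of 3.56 against 3.18 to 3.24. Telmisartan 302 was far above the other treated rats for Ccne2, at 3.97 against 3.00 to 3.09, and for Chaf1b, at 4.04 against 3.48 to 3.54. Telmisartan 303 was far below for Rrm2, at 3.47 against 4.18 to 4.27. Control 102 was far below for Mcm4, at 2.22 against 2.60 to 2.65, and far above for the fibroblast list, with a median of -0.76 against -1.04 to -1.01.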

How the results depend on the processing

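No paired analysis was possible because the replicate numbers of control and treated rats have none in common. No member passed the test under any alternative run. Of all genes, 0 to 1 passed with a rat left out, the 1 arising without Control 102 and without Telmisartan 303, and 0 under the other alternatives. The median control level of the members was 1.98 without background correction, 2.69 on the scanner software's ratio and 3.33 with median centring. The last raises all genes: their median became 0.67, and the members lay 2.66 above it rather than 2.17. The median of the other pathway genes became 0.89 on the scanner's ratio and 1.81 with median centring. Of 612 recomputed member levels, 70 moved by more than 1 SD of the control rats. None fell below 0 from a main level above 1, a check that could not count Mcm10 at 0.44. The 612 include settings that cannot change a control level, such as leaving out a treated rat, so they overstate the number of separate checks.

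Of 264 recomputed treatment differences of the 12 named members, 25 changed sign and 0 passed the threshold. The 264 include settings that cannot change a difference, such as another variance model. On the scanner's ratio Cdc6 became 0.35, Pola1 0.14 and Mcm10 -0.30. In Cy5 alone Cdc6 became 0.038, Pola1 0.0046, Mcm10 -0.063 and Orc1 -0.056. Median centring gave -0.047 for Mcm10. On slide 1 Cdc6 was 0.013 and Mcm10 -0.23, and on slide 2 Dut was -0.11 and Orc1 -0.040. Dut was also -0.0034 with probes averaged, -0.014 with array weights and -0.020 without Control 103 and Telmisartan 302. With each rat left out, Dut ranged from -0.14 to 0.19, Mcm10 from -0.048 to 0.25, Orc1 from -0.070 to 0.17, Pola1 from -0.22 to 0.011, Rfc4 from -0.056 to 0.31 and Rrm2 from -0.23 to 0.039. The cause was not tested. Signal over background limits Cdc6, Tk1, Pola1, Pole2, Mcm5 and Mcm10, whose reference was dim on every array. On the scanner's ratio their control levels were 5.12, 4.54, 3.71, 3.75, 3.60 and 2.02.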
